A study of Oryza sativa with 9 samples.

Results

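The ossro1c mutant of rice was compared with wild type (WT) after chilling, across all loci that passed an expression filter, 26112 of the 55801 loci in the count table. Shoots of seedlings with 4 leaves in the ZH11 background, a japonica variety, were held at 4 °C for 2 d, and each genotype was sequenced as 3 libraries. The ossro1c libraries are called knockouts by the submitters, and an osdreb2b knockout group of 3 libraries from the same background and treatment was used for the spread between replicates and for a few direct contrasts. Neither the allele nor the number of independent lines is given in the labels. No library from unchilled plants was used here, and what follows is how the genotypes differed once chilled.

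OsSRO1c belongs to the SRO family, plant proteins in which a poly(ADP-ribose) polymerase-like domain is joined to one that binds transcription factors. OsDREB2B is a transcription factor with an AP2/ERF domain, and DREB2 proteins bind dehydration-responsive elements in the promoters of stress genes. Chilling slows growth, sugar export and mitochondrial electron flow in rice, a species of tropical origin, and hormone, carbon and nutrient genes are known to respond to it.

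Levels are given as CPM (counts scaled to library size) after TMM scaling, which sets the bulk of genes equal between libraries. Changes are log2 fold changes of ossro1c against WT with a standard error (SE), and p-values are those of edgeR's quasi-likelihood test, adjusted over all 26112 genes, with 0.05 as the threshold. The labels do not say that libraries came from separate plants or pools, and the p-values therefore cover only the spread from sample to sample, which may be technical. A lower level in whole shoots may mean fewer cells of a type or less RNA per cell, and these cannot be told apart.

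The gene named by the genotype was examined first. OsSRO1c (LOC_Os03g12820, chromosome 3) was still counted, at 2078, 2024 and 2044 CPM in the WT libraries and at 379, 415 and 451 CPM in those labelled ossro1c. All 3 mutant libraries lay below all 3 of WT, at 20.3% of the WT mean (log2 -2.304, SE 0.07, edgeR adjusted p = 2.7e-11). In libraries labelled osdreb2b the same transcript was lower still, at 134 ± 4.29 CPM (SD, n = 3), so the transcript level does not single out the group that bears its name. The labels are kept as given, and each direction below belongs to the libraries labelled ossro1c. OsDREB2B (LOC_Os05g27930) stood at 168, 166 and 173 CPM in WT and 65.9, 60.5 and 79.8 CPM under the ossro1c label. It was 2.46-fold lower there, without overlap (log2 -1.30, SE 0.09, edgeR adjusted p = 3.7e-08). In libraries labelled osdreb2b the gene that gives them their name was not low but higher than in both other groups, at 311 ± 10.3 CPM (SD, n = 3), by 0.88 on the log2 scale against WT (edgeR adjusted p = 1.7e-06) and by 2.18 against ossro1c (edgeR adjusted p = 5.4e-10). Neither named transcript was lowest under its own label, and every osdreb2b value below is that of libraries so labelled. COLD1 (LOC_Os04g51180), a membrane regulator of G protein signalling in cold sensing that the series names as a target, read 52.5, 50.2 and 51.6 CPM in WT. Under the ossro1c label it read 29.7, 31.4 and 29.1 CPM, below every WT library (log2 -0.78, SE 0.08, edgeR adjusted p = 1.2e-06). COLD1 was also low in libraries labelled osdreb2b, at 32.2 ± 0.817 CPM (SD, n = 3; log2 -0.68 against WT, edgeR adjusted p = 4.5e-06). The 2 mutant groups did not differ past the threshold in COLD1 (log2 difference 0.10, edgeR adjusted p = 0.32). For each of these 3 genes a two-sided exact permutation test of ossro1c against WT gave p = 0.1, the smallest that 3 libraries against 3 allow.

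The loci next to OsSRO1c on chromosome 3 went both ways. Of the 40 nearest tested loci, 20 on each side, 18 were higher, 7 lower and 15 did not pass, against 29.4% higher and 31.4% lower over all genes tested, with a median log2 change of 0.54 and a range from -2.63 to 9.23. The brassinosteroid gene DWF4 (LOC_Os03g12660) and the haemoglobin gene HB1 (LOC_Os03g13140), both described below, lie in this window, and HB2 (LOC_Os03g12510) lies just outside it.

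Library totals were 62942994 to 64783631 counts in WT and 58398026 to 69336224 under the ossro1c label, and 28087 to 28223 loci were detected in WT libraries against 28802 to 29383. The TMM factors were 0.894 to 0.903 in WT and 1.09 to 1.14 in ossro1c, so the scaling itself differed between the groups. Replicate 3 of ossro1c stood apart from the other 2. Its Spearman correlations with them were 0.980 and 0.982, against 0.990 between replicates 1 and 2 and within WT, and 0.906 to 0.914 between WT and ossro1c. Among 14960 genes at 5 CPM or more it was the highest or lowest of the 3 in 86.4%. Any of 3 alike libraries would be so in most genes, since a ranking of 3 leaves a single middle place. In 214 genes replicate 3 lay at least 1 log2 unit from both others, against 6 to 10 genes for each of the other 5 libraries. Without it 16452 genes of 26795 tested passed, against 15892, and 15090 passed in both fits. Where leaving it out ended a named call, or moved a named value or a count of calls by over 1.5 times, the value without it stands beside the result.

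The genotypes differed across most of the expressed genome. The threshold was passed by 15892 genes (60.9%), of which 7685 (29.4%) were higher and 8207 (31.4%) lower under the ossro1c label. Changes of at least 2-fold were found in 4591 higher genes (17.6%) and 4356 lower genes (16.7%). The groups did not overlap in 17551 genes (67.2%). The median absolute log2 change was 0.81 over all genes tested, and the quartiles of the changes were -0.77 and 0.85. Large changes were slightly more often increases, with 456 genes higher and 374 lower by at least 4 on the log2 scale, while 2041 genes passed with a change under 0.5.

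**Figure D1:**
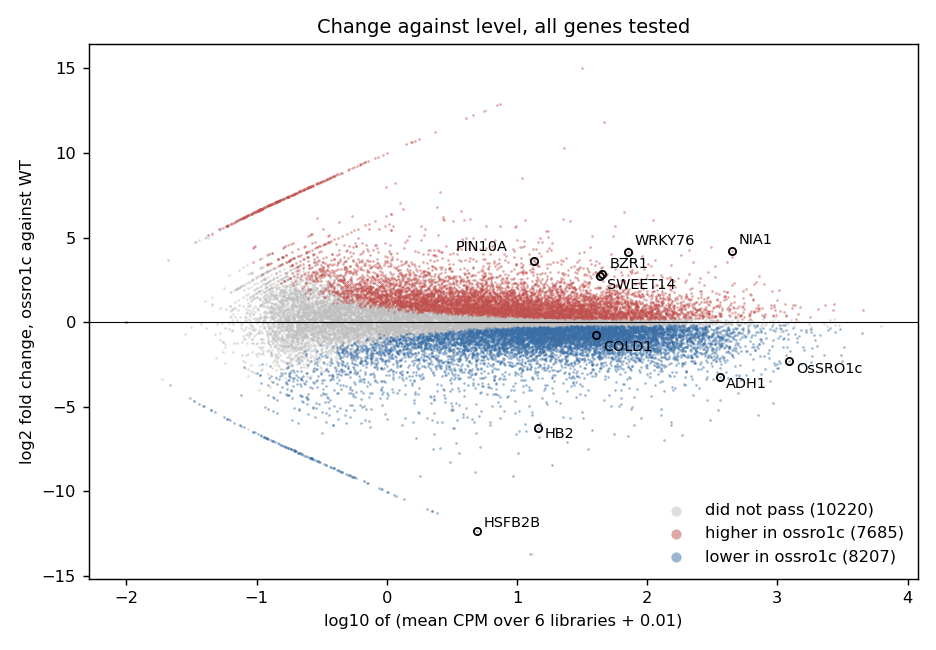
Log2 fold change of ossro1c against WT for each of the 26112 genes tested, against the log10 of its mean CPM over the 6 libraries; red points passed as higher (7685), blue points as lower (8207) and grey points did not pass. Slanted lines at both edges are loci with no counts in 1 group, whose fitted change depends on the prior count; HSFB2B is one of these. List members named in the text are ringed.

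The direction depended on the level of the gene. Genes under 1 CPM on average were more often higher, 1169 against 646 lower, and so were those from 1 to 10 CPM, 3168 against 2165. Above that the balance turned, with 2766 higher and 4086 lower between 10 and 100 CPM and 582 higher and 1310 lower over 100 CPM. The share that passed rose with level from 28.0% to 83.9%. The gradient changed with the scaling. With raw library totals, which moved the median of all genes to 0.32, the class from 10 to 100 CPM had 3810 higher and 2940 lower, whereas the class over 100 CPM still had fewer higher, 828, than lower, 1010. Upper-quartile scaling, with a median of 0.16, gave 3244 and 3513 in the former class and 701 and 1165 in the latter.

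**Figure D2:**
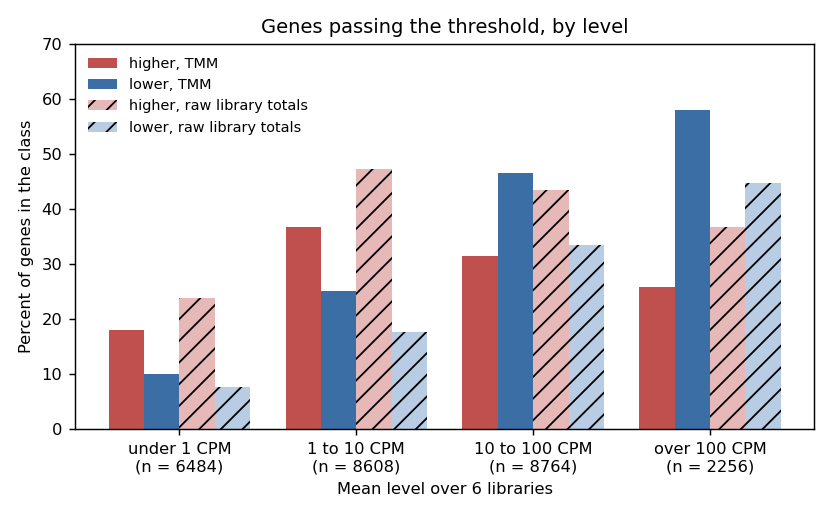
Percent of genes that passed the threshold as higher (red) or lower (blue) in ossro1c, in 4 classes of mean CPM over the 6 libraries; solid bars use TMM scaling and hatched bars raw library totals. Lower genes outnumber higher ones over 100 CPM under both scalings shown, and between 10 and 100 CPM under TMM but not under raw library totals.

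No chromosome stood out: from 56.3% of tested genes on chromosomes 10 and 12 to 64.2% on chromosome 2 passed. Runs of at least 5 neighbouring tested loci, all passing with a change of at least 2-fold in 1 direction, numbered 32, of which 14 were higher and 18 lower, and they took in 180 loci. The longest was a run of 9 lower loci on chromosome 7 with a median log2 change of -2.91, and a run of 6 higher loci on chromosome 5 had a median of 5.17.

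Some loci were present in 1 genotype and not counted in the other. In 21 loci with at least 50 counts in each WT library, all ossro1c libraries were at 0, and 26 loci with at least 50 counts in each ossro1c library were at 0 in WT. These 47 loci lay on 10 chromosomes. LOC_Os03g02470 went from 0 counts in every WT library to 4282, 4331 and 5252, and LOC_Os09g32370 from 1547, 1397 and 1433 counts to 0. Of the 21 loci at 0 in ossro1c, 14 were also at 3 counts or fewer in every osdreb2b library. Of the 26 at 0 in WT, 10 had at least 50 counts in each osdreb2b library and 7 had 3 or fewer.

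To describe pathways, 37 gene lists were used, of which 389 members had a name that matched the reference table or were study genes. The filter left 341 of them; the other 48 reached at most 28 counts in any WT or ossro1c library. Of the 341, 143 were higher, 103 lower and 95 did not pass, so that 72.1% passed, against 60.9% of all genes. The median log2 change was 0.12, against -0.001 over all genes tested. Of the 341 members, 93 had a mean over 100 CPM, against 2256 of all 26112 genes, and 34 were under 1 CPM, against 6484. Since the share that passed rose with level, from 28.0% to 83.9%, the shares of 72.1% and 60.9% do not compare genes of like level. The members were also chosen with earlier results of these data known. Reads that fit more than 1 locus could have been split between close relatives, since how they were counted is not given in the sources used here. In some lists all calls of the rarer direction are named, and in others, such as the heat shock factors, they are not. Lists differed in how many of their genes had a matched name, from 20 of 20 for cellulose and expansins to 1 of 12 for fatty acid desaturation and wax. Counts per list cover matched genes only. Members named outside the naming rule were added after their values were seen.

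Genes of low-oxygen metabolism and of the mitochondrial bypass went both ways, and the 3 that fell did so strongly. Alcohol dehydrogenase ADH1 (LOC_Os11g10480), which regenerates NAD+ from acetaldehyde during fermentation, was counted at 633, 647 and 663 CPM in WT and 71.4, 64.0 and 74.1 CPM under the ossro1c label. It was 9.28-fold lower with no overlap (log2 -3.21, SE 0.08, edgeR adjusted p = 3.8e-12). HB2 (LOC_Os03g12510), a non-symbiotic haemoglobin that scavenges nitric oxide, was at 31.0, 29.2 and 25.4 CPM in WT and at 0.406, 0.312 and 0.395 CPM in the mutant libraries. That is 76.6-fold lower (log2 -6.26, SE 0.23, edgeR adjusted p = 6.5e-11). AOX1A (LOC_Os04g51150), the alternative oxidase that passes electrons to oxygen without proton pumping, went from 672, 685 and 679 CPM to 128, 143 and 158 CPM. All 3 mutant libraries were far below WT (log2 -2.25, SE 0.08, edgeR adjusted p = 6.8e-11). The pyruvate decarboxylase genes, which act one step before alcohol dehydrogenase, moved the other way. PDC2 (LOC_Os03g18220) read 22.5, 22.7 and 18.4 CPM in WT and 34.7, 33.8 and 37.3 CPM in ossro1c (log2 0.73, edgeR adjusted p = 2.7e-05), and PDC1 rose by 0.53 on the log2 scale, a call lost without ossro1c replicate 3 (log2 0.45, edgeR adjusted p = 0.07). Higher calls in this list also numbered 1 without WT replicate 2 or 3 or without ossro1c replicate 1. HB1 (1.06, 1.003 and 0.772 CPM in WT and 0.422, 0.0390 and 0 CPM in ossro1c) and ADH2, both under 2 CPM in every library, did not pass. HB1 (LOC_Os03g13140) passed as lower without ossro1c replicate 1 (log2 -5.46, edgeR adjusted p = 0.0022). In all, 3 of 7 tested members fell and 2 rose, with a median log2 change of -2.25. In the direct contrast of osdreb2b with ossro1c, which shares the ossro1c libraries, 46.5% of all genes passed. For ADH1 and HB2 the osdreb2b libraries, at 69.4 ± 3.70 and 0.403 ± 0.154 CPM (SD, n = 3), did not differ from ossro1c past the threshold (edgeR adjusted p = 0.94 and 0.73).

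Ethylene genes were lower in 8 of 10 cases and higher in 2, with a median log2 change of -0.47 (-0.15 with raw library totals, where 4 were lower). Fitted on the WT and ossro1c libraries alone, 5 were lower. The list runs from synthesis, through ACC synthases and ACC oxidase, to the receptors and the EIN2 and EIL1 transducers. ACS2 (LOC_Os04g48850), an ACC synthase, had 24.2, 19.2 and 27.2 CPM in WT and 2.59, 2.51 and 2.21 CPM under the ossro1c label, 9.65-fold lower (log2 -3.27, SE 0.16, edgeR adjusted p = 1.2e-09). ACS1 (LOC_Os03g51740), of the same family, fell from 12.8, 13.9 and 12.7 CPM to 4.85, 6.66 and 6.34 CPM (log2 -1.14). Another ACC synthase, ACS5 (LOC_Os01g09700), was almost absent from WT, at 0.156, 0.0528 and 0 CPM, and was counted at 4.95, 4.13 and 6.71 CPM in ossro1c (log2 6.21, SE 0.45, edgeR adjusted p = 4.0e-08). The ACC oxidase ACO1 rose by 0.35, and by 0.17 without ossro1c replicate 3, its highest library. Higher calls in the list numbered 1 without WT replicate 2 or 3. Among receptors, ETR3 (LOC_Os02g57530) read 228, 216 and 224 CPM in WT and 38.6, 39.6 and 38.1 CPM in ossro1c. This 5.74-fold fall had no overlap (log2 -2.52, SE 0.07, edgeR adjusted p = 8.2e-12), and osdreb2b libraries, at 129.6 ± 4.70 CPM (SD, n = 3), lay above ossro1c (log2 difference 1.74, edgeR adjusted p = 2.2e-10). The remaining receptor and transducer genes of the list were lower by smaller amounts, with log2 changes from -1.12 for ERS2 to -0.18 for ERS1. Without ossro1c replicate 3 the changes of EIN2 and ETR2 moved from -0.56 to -0.34 and from -0.38 to -0.22.

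Genes of brassinosteroids, steroid hormones of cell elongation, were higher in 7 of 10 cases and lower in 0 (1 without ossro1c replicate 1), with a median log2 change of 0.97. BZR1 (LOC_Os07g39220), the transcription factor at the end of the pathway, was at 11.6, 11.02 and 10.3 CPM in WT and 68.3, 66.1 and 100.4 CPM in ossro1c. It was 7.14-fold higher, with replicate 3 the highest library (log2 2.84, SE 0.16, edgeR adjusted p = 3.4e-09; 2.62 without that library). GSK2 (LOC_Os05g11730), the kinase that restrains BZR1, rose as well, from 0.917, 1.43 and 0.909 CPM to 6.50, 6.25 and 6.15 CPM (log2 2.54, SE 0.20, edgeR adjusted p = 1.3e-07). The synthesis enzymes DWF4 (LOC_Os03g12660) and D2 (LOC_Os01g10040) were at 1.80, 2.53 and 2.299 and 6.92, 6.86 and 5.35 CPM in WT. Under the ossro1c label DWF4 read 7.30, 5.84 and 8.06 CPM and D2 read 14.3, 15.3 and 11.1 CPM, all above WT (log2 1.68 and 1.09). Genes with opposing roles in the pathway were thus higher together. The co-receptor gene BAK1 (LOC_Os08g07760) did not pass, at 59.3, 58.2 and 59.4 CPM in WT and 57.5, 54.9 and 55.3 CPM in ossro1c (edgeR adjusted p = 0.38).

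Auxin genes were mixed with more increases than decreases. Of 24 Aux/IAA genes, which encode the short-lived repressors that auxin removes and which are often themselves auxin-induced, 13 rose and 6 fell (median log2 change 0.53). IAA2 (LOC_Os01g09450) had 11.2, 10.2 and 10.1 CPM in WT and 67.5, 71.0 and 74.2 CPM in ossro1c, 6.74-fold higher (log2 2.75, SE 0.09, edgeR adjusted p = 1.8e-11). IAA6 (LOC_Os01g53880) rose from 64.3, 64.8 and 65.7 CPM to 211, 207 and 186 CPM, IAA21 by 1.64 and IAA23 by 1.53 on the log2 scale. The 6 that fell were IAA9 (log2 -1.48), IAA7 (-1.40), IAA15 (-1.06), IAA30 (-0.97), IAA19 (-0.87) and IAA18 (-0.80). Of these IAA19 (LOC_Os05g48590) went from 572, 574 and 591 CPM in WT to 299, 293 and 359 CPM in ossro1c (edgeR adjusted p = 5.8e-07). Of 22 auxin response factors, the DNA-binding partners of these repressors, 9 rose and 5 fell. Without ossro1c replicate 3, 14 passed as higher and 5 as lower, and fitted on the WT and ossro1c libraries alone 2 passed as lower. ARF10 (LOC_Os04g43910) stood at 23.2, 25.5 and 21.3 CPM in WT and 86.5, 86.9 and 90.6 CPM in ossro1c (log2 1.92, SE 0.11, edgeR adjusted p = 6.2e-09). In osdreb2b libraries it stood at 19.9 ± 3.18 CPM (SD, n = 3), lower than in ossro1c by a log2 difference of -2.14 (edgeR adjusted p = 3.8e-09). ARF4 (LOC_Os01g70270) went from 665, 644 and 639 CPM to 1334, 1314 and 1041 CPM (log2 0.92), whereas ARF25 (LOC_Os12g41950) fell from 79.1, 84.5 and 87.3 CPM to 29.2, 27.4 and 16.4 CPM (log2 -1.78; -1.56 without replicate 3, its lowest library). The others that fell, ARF23, ARF6, ARF24 and ARF18, did so by 0.50 or less on the log2 scale, ARF6 by 0.41 and by 0.19 without replicate 3. The median of this list, 0.09, moved to -0.04 under 1 of the alternatives and to 0.41 with raw totals. PIN10A (LOC_Os01g45550), an auxin efflux carrier, was at 1.76, 2.46 and 1.89 CPM in WT and 27.2, 25.6 and 21.5 CPM in ossro1c. It was 12.1-fold higher with no overlap (log2 3.60, SE 0.16, edgeR adjusted p = 3.1e-10), and PIN1B rose by 0.68. PIN5A (LOC_Os01g69070) rose by 0.28, a call lost without WT replicate 1 (0.27), WT replicate 3 (0.28) or ossro1c replicate 2 (0.19).

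Gibberellin genes had 5 of 9 members higher and 0 lower (median log2 change 0.39), with 1 lower without ossro1c replicate 3. Only 10 of 22 listed genes had a matched name, and none of the listed GA3ox and GA2ox genes did, so these counts cover a part of the pathway. Of the early synthesis enzymes, KS1 (LOC_Os04g52230), which makes ent-kaurene, read 8.84, 7.74 and 9.01 CPM in WT and 16.2, 19.3 and 17.2 CPM in ossro1c (log2 1.04), and KO2 (LOC_Os06g37364), the oxidase that follows, rose from 5.02, 3.91 and 4.10 CPM to 8.13, 9.07 and 8.61 CPM (log2 0.99). The DELLA repressor SLR1 (LOC_Os03g49990) and the receptor GID1 (LOC_Os05g33730) rose by less, 0.39 and 0.25. GA20ox2, the green revolution gene, rose by 2.00 from under 0.4 CPM and did not pass without replicate 3 (edgeR adjusted p = 0.0501). Among cytokinin genes 3 of 16 rose and 6 fell (median -0.33, and -0.01 with raw totals). Of 6 tested type-A response regulators, cytokinin-induced brakes on the pathway, 4 were lower. RR6 (LOC_Os04g57720) had 34.6, 27.4 and 32.3 CPM in WT and 1.99, 2.81 and 2.37 CPM in ossro1c (log2 -3.71, SE 0.19, edgeR adjusted p = 1.6e-09), and RR4 (LOC_Os01g72330) fell from 16.6, 17.5 and 19.6 CPM to 5.25, 5.39 and 5.15 CPM (log2 -1.77). LOG (LOC_Os01g40630), the enzyme that frees active cytokinin, was at 202, 198 and 202 CPM in WT and 572, 548 and 656 CPM in ossro1c, 2.95-fold higher (log2 1.56, SE 0.08, edgeR adjusted p = 7.9e-10). CKX4, a cytokinin oxidase, fell by 1.18 on the log2 scale, while CKX5 of the same family rose by 1.52, from a mean of 1.35 to 3.88 CPM. The receptor genes were split. HK4, at a WT mean of 30.0 CPM, rose by 0.47. HK3, at a WT mean of 381 CPM, fell by 0.29 (0.15 without ossro1c replicate 3) but did not pass with raw totals (edgeR adjusted p = 0.81). HK5 did not pass (edgeR adjusted p = 0.70), except as higher without ossro1c replicate 3 (log2 0.25). Of 4 strigolactone genes only the receptor gene D14 (LOC_Os03g10620) passed, at a log2 change of 0.27 (0.14 without ossro1c replicate 3, where D3 passed too, at 0.28), a call lost without WT replicate 2 (0.26) or WT replicate 3 (0.25).

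**Figure D3:**
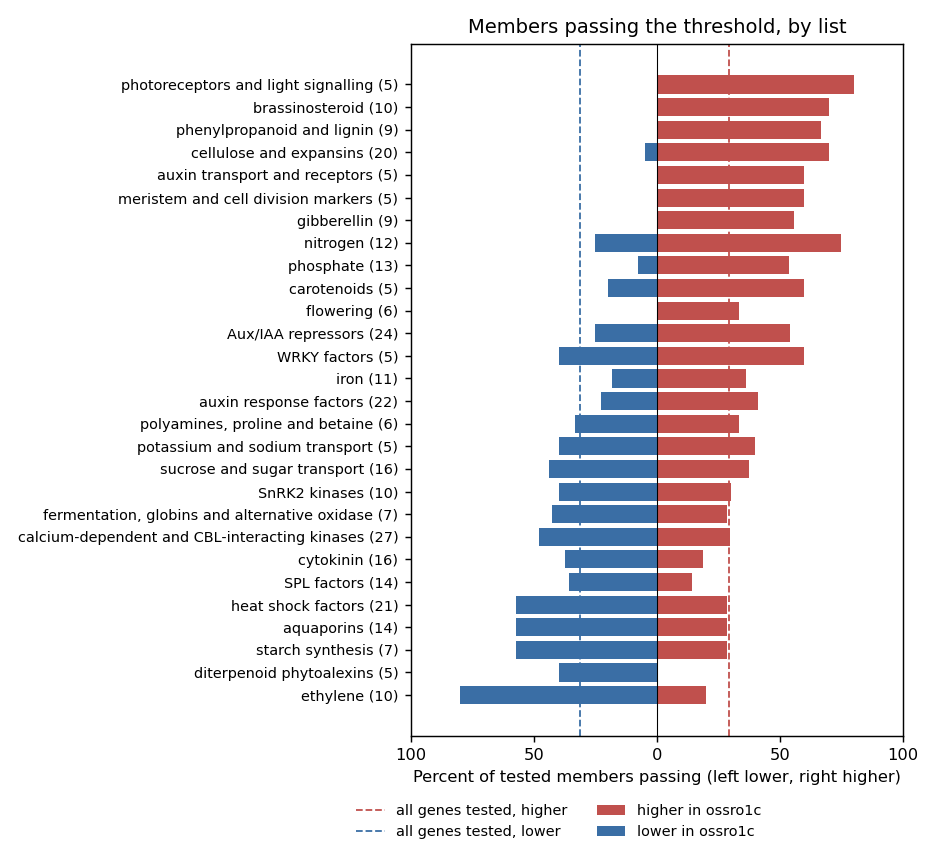
Percent of the tested members of each list with at least 5 tested members (number in brackets) that passed the threshold as higher in ossro1c (red, to the right) or lower (blue, to the left); dashed lines mark the shares over all 26112 genes, 29.4% and 31.4%. Photoreceptor and brassinosteroid genes, with 4 of 5 and 7 of 10 members higher and 0 lower, stand at the top, and ethylene genes, with 8 of 10 lower, at the bottom.

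Cell wall genes were higher in 14 of 20 cases and lower in 1 (median log2 change 0.65). The list joins cellulose synthase subunits with expansins, proteins that loosen the wall during growth. The 6 largest increases of the list were all in expansins. EXPB4 (LOC_Os10g40730) was counted at 1.35, 2.22 and 1.46 CPM in WT and 9.02, 10.3 and 12.02 CPM in ossro1c, 6.23-fold higher (log2 2.64, SE 0.22, edgeR adjusted p = 1.8e-07). Its neighbour EXPB3 (LOC_Os10g40720) rose from 11.8, 10.9 and 10.6 CPM to 25.7, 27.05 and 32.5 CPM (log2 1.36). EXPA2 (LOC_Os01g60770) and EXPA4 (LOC_Os05g39990) rose by 1.54 and 1.53. The cellulose synthase genes had log2 changes from -0.34 to 1.11, with CESA3 (LOC_Os07g24190) at 409, 411 and 415 CPM in WT and 410.3, 405 and 315 CPM in ossro1c, not past the threshold (edgeR adjusted p = 0.25). CESA8, the 1 member that was lower (log2 -0.34), did not pass with raw totals (edgeR adjusted p = 0.87). Phenylpropanoid and lignin genes were higher in 6 of 9 cases and lower in 0 (median 0.54), with 1 lower without WT replicate 3, ossro1c replicate 1 or ossro1c replicate 3 and in the fit with the replicate block. COMT1 (LOC_Os08g06100), a methyltransferase of lignin synthesis, read 108, 106 and 107 CPM in WT and 166, 174 and 230.3 CPM in ossro1c (log2 0.83, SE 0.10, edgeR adjusted p = 1.1e-05). 4CL2 and 4CL4, ligases that activate cinnamic acids, rose by 1.204 and 0.64. Chalcone synthase CHS1 (LOC_Os11g32650), the entry to flavonoids, stood at 99.9, 107 and 95.4 CPM in WT and 317, 318 and 369 CPM in ossro1c, 3.33-fold higher without overlap (log2 1.73, SE 0.08, edgeR adjusted p = 6.5e-10). Diterpenoid phytoalexin genes were scarcely counted. Of 5 tested 2 fell, KSL4 from 1.32, 0.440 and 1.27 CPM to 0, 0 and 0 CPM and CYP76M8 from 2.79, 4.68 and 2.32 CPM to 0.120, 0.234 and 0.145 CPM.

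The 12 tested genes of nitrogen uptake and assimilation passed as 9 higher and 3 lower (median log2 change 0.54). Of 25 listed genes, 15 had a matched name. Without ossro1c replicate 3, 7 were higher and 3 lower, and GS1;2 and NAR2.1, at 0.20 and 1.74, no longer passed. NIA1 (LOC_Os08g36480), nitrate reductase, had the smallest adjusted p of the 341 list members. It was counted at 44.6, 44.4 and 46.5 CPM in WT and 826, 885 and 839 CPM in ossro1c. It was 18.8-fold higher (log2 4.23, SE 0.08, edgeR adjusted p = 4.7e-13), and osdreb2b libraries, at 429 ± 29.3 CPM (SD, n = 3), lay between (log2 difference from ossro1c -0.99, edgeR adjusted p = 5.6e-08). The ammonium transporter AMT1;1 (LOC_Os04g43070) rose from 99.3, 101 and 93.8 CPM to 247, 249 and 298 CPM (log2 1.43, SE 0.09, edgeR adjusted p = 1.1e-08). In osdreb2b it was 66.0 ± 5.21 CPM (SD, n = 3), lower than in ossro1c by 2.00 on the log2 scale (edgeR adjusted p = 9.0e-10). Ferredoxin-dependent glutamate synthase, FD-GOGAT (LOC_Os07g46460), the main route of ammonium assimilation in leaves, read 1181, 1201 and 1195 CPM in WT and 1911, 1944 and 1191 CPM in ossro1c. Replicates 1 and 2 were above WT and replicate 3 was within the WT range, and the change of 0.50 became 0.69 without replicate 3. GS1;3 (LOC_Os03g50490), a cytosolic glutamine synthetase, fell from 12.4, 13.9 and 13.1 CPM to 0.873, 0.754 and 0.448 CPM (log2 -4.25, SE 0.28, edgeR adjusted p = 1.7e-08). The glutamate dehydrogenases, which release ammonium from glutamate, were lower too. GDH2 (LOC_Os04g45970) went from 358, 344 and 361 CPM to 165, 164 and 172 CPM (log2 -1.09), and GDH1 fell by 0.81.

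Phosphate genes were higher in 7 of 13 cases and lower in 1 (median log2 change 0.58). SPX proteins bind inositol pyrophosphates and hold the factor PHR2 when phosphate is ample, and their own genes are induced by phosphate shortage. SPX2 (LOC_Os02g10780) had 16.5, 18.7 and 17.9 CPM in WT and 122, 119.8 and 158 CPM in ossro1c, 7.53-fold higher (log2 2.91, SE 0.11, edgeR adjusted p = 8.6e-11). SPX1 (LOC_Os06g40120) rose from 134, 132 and 126 CPM to 280.3, 266 and 309.8 CPM (log2 1.13) and the transporter PT1 (LOC_Os03g05620) from 46.3, 44.2 and 40.9 CPM to 102, 103 and 125 CPM (log2 1.33). PHR2 (LOC_Os07g25710) itself was at 68.7, 68.0 and 67.9 CPM in WT and 71.4, 68.7 and 66.9 CPM in ossro1c and did not pass (edgeR adjusted p = 0.85), except under raw library totals and upper-quartile scaling. SPX4 was the 1 that was lower (log2 -0.34), and did not pass with raw totals (edgeR adjusted p = 0.87). No member was called lower without WT replicate 1, WT replicate 2, ossro1c replicate 1 or ossro1c replicate 2.

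Potassium and sodium transporters went both ways, 2 of 5 higher and 2 lower. AKT1 (LOC_Os01g45990), an inward potassium channel, fell from 36.6, 37.8 and 40.4 CPM to 8.88, 9.64 and 10.02 CPM, 4.02-fold (log2 -2.01, SE 0.10, edgeR adjusted p = 8.7e-10). HKT1;1 (LOC_Os04g51820), a sodium transporter, rose from 10.2, 11.4 and 12.5 CPM to 61.5, 59.6 and 57.0 CPM, 5.22-fold (log2 2.38, SE 0.09, edgeR adjusted p = 1.1e-10). The potassium transporter HAK5 (LOC_Os01g70490) rose from 7.51, 6.72 and 6.95 CPM to 35.3, 32.1 and 22.5 CPM (log2 2.08). HAK1 (LOC_Os04g32920), at a log2 change of -0.18, passed as lower under TMM and turned to 0.14 with raw totals; the call was also lost without ossro1c replicate 1 (-0.16) or without WT replicate 2 or 3 (-0.18 each). Of 11 iron genes 4 rose and 2 fell (median 0.39). YSL16 (LOC_Os04g45900), a transporter of metal chelates, was at 31.5, 31.6 and 28.6 CPM in WT and 13.1, 12.5 and 12.97 CPM in ossro1c (log2 -1.25). The regulator IDEF1 fell by 0.43 but not with raw totals (edgeR adjusted p = 0.21). The 4 that rose were the vacuolar transporters VIT1 (0.93) and VIT2 (2.79), NAS3 (1.15) and NAAT1 (1.70), all under 6 CPM in every library.

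Sugar genes were split, 6 of 16 higher and 7 lower, with a median log2 change of -0.24 that turned to 0.09 with raw totals. SUS4 (LOC_Os03g22120), a sucrose synthase that cleaves sucrose, stood at 376, 381 and 406 CPM in WT and 45.4, 43.8 and 41.3 CPM in ossro1c. It was 8.91-fold lower with no overlap (log2 -3.16, SE 0.09, edgeR adjusted p = 8.2e-12). Of 6 SWEET genes, which encode sugar transporters, 4 rose and 2 fell. SWEET14 (LOC_Os11g31190), a plasma membrane sucrose exporter, had 12.03, 12.4 and 9.66 CPM in WT and 68.0, 68.9 and 86.9 CPM in ossro1c (log2 2.72, SE 0.13, edgeR adjusted p = 8.8e-10). SWEET2B (LOC_Os01g50460) rose from 80.4, 77.6 and 80.5 CPM to 404, 392 and 451 CPM (log2 2.39, SE 0.07, edgeR adjusted p = 1.8e-11), and SWEET15 by 1.87. In osdreb2b libraries SWEET14 was at 15.7 ± 1.45 and SWEET2B at 168 ± 3.75 CPM (SD, n = 3), both below ossro1c (log2 differences -2.25 and -1.31, edgeR adjusted p = 7.1e-09 and 4.5e-09). The other member that rose was SWEET13, by 0.49, while SWEET11 and SWEET4 fell by 0.72 and 0.57. The sucrose phosphate synthase gene SPS8 (LOC_Os08g20660) did not pass, at 149, 145 and 153 CPM in WT and 155, 154 and 107 CPM in ossro1c.

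Starch synthesis genes had 2 of 7 members higher and 4 lower (median log2 change -0.82; with raw totals 2 were lower). Only these 7 of 22 listed genes had a matched name. SSIIB (LOC_Os02g51070), the starch synthase of leaves, fell from 164, 165 and 161 CPM to 43.0, 43.0 and 45.5 CPM, 3.72-fold (log2 -1.90, SE 0.07, edgeR adjusted p = 5.1e-11). In osdreb2b libraries it was at 212 ± 5.69 CPM (SD, n = 3), above ossro1c by 2.27 on the log2 scale (edgeR adjusted p = 2.1e-11). SSI (LOC_Os06g06560) fell from 41.2, 31.8 and 44.9 CPM to 23.5, 22.0 and 21.2 CPM (log2 -0.82), and SSIIA and SBE1 by 1.16 and 0.26. SSIIA, under 2 CPM in every library, did not pass without ossro1c replicate 3 (edgeR adjusted p = 0.1). The debranching enzyme ISA1 (LOC_Os08g40930) rose from 108, 108 and 118 CPM to 272, 259.6 and 267 CPM (log2 1.26, SE 0.07, edgeR adjusted p = 2.2e-09), and AGPS2, a subunit of ADP-glucose pyrophosphorylase, rose by 0.32. The alpha-amylase AMY3D (LOC_Os08g36910), which is induced by sugar shortage, was at 1.45, 1.72 and 1.34 CPM in WT and 8.73, 8.85 and 9.13 CPM in ossro1c (log2 2.56, SE 0.15, edgeR adjusted p = 6.8e-09).

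**Figure D4:**
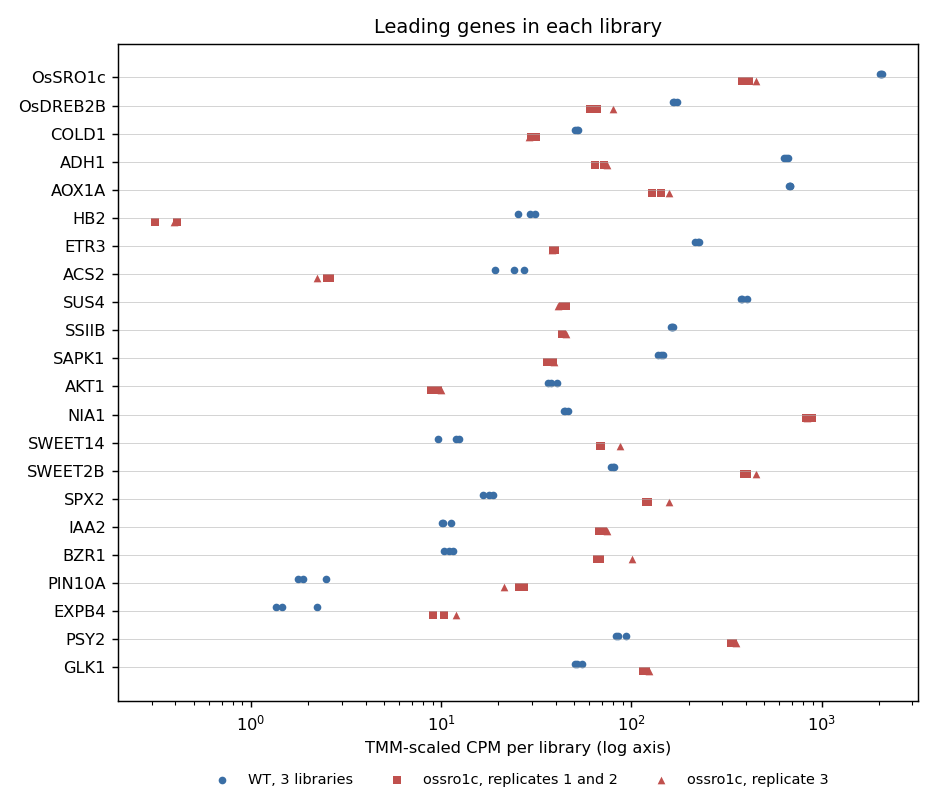
TMM-scaled CPM of 22 named genes in each WT library (blue circles), ossro1c replicates 1 and 2 (red squares) and ossro1c replicate 3 (red triangles), on a log axis. In each of these genes the 2 genotypes do not overlap, and replicate 3 lies apart from its group in some, such as BZR1.

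Light and pigment genes whose names could be matched were mostly higher. Only 5 of 16 listed photoreceptor and light signalling genes and 5 of 10 listed carotenoid genes had such a match. Of the 5 light genes 4 rose and 0 fell (median log2 change 0.78). GLK1 (LOC_Os06g24070), a transcription factor of chloroplast development, read 51.9, 54.7 and 50.5 CPM in WT and 115, 119 and 123 CPM in ossro1c (log2 1.19, SE 0.07, edgeR adjusted p = 8.2e-09), and GLK2 rose by 0.36. The phytochrome gene PHYB (LOC_Os03g19590) went from 71.6, 64.4 and 60.4 CPM to 142, 151 and 101 CPM (log2 1.005; 1.16 without replicate 3), and PHYA (LOC_Os03g51030) rose by 0.78. PHYC (LOC_Os03g54084), at 64.1, 59.1 and 62.7 CPM in WT and 62.4, 65.6 and 43.6 CPM in ossro1c, did not pass (edgeR adjusted p = 0.44). Phytoene synthases, which open the carotenoid pathway, were all higher. PSY2 (LOC_Os12g43130) had 82.6, 85.1 and 94.0 CPM in WT and 340.1, 333 and 353 CPM in ossro1c, 3.92-fold higher (log2 1.97, SE 0.07, edgeR adjusted p = 6.6e-11). PSY1 (LOC_Os06g51290) rose from 150.3, 153 and 148 CPM to 319.9, 293 and 268 CPM (log2 0.96) and PSY3, linked to abscisic acid synthesis, by 1.04. Zeaxanthin epoxidase ZEP (LOC_Os04g37619), further down the same pathway, fell from 143, 145 and 146 CPM to 85.2, 93.1 and 77.7 CPM (log2 -0.76). In osdreb2b libraries PSY2 was at 99.3 ± 0.513 and ZEP at 464 ± 10.4 CPM (SD, n = 3), with log2 differences of -1.78 and 2.44 from ossro1c (edgeR adjusted p = 2.7e-10 and 3.4e-11). Glycolate oxidase GLO1 (LOC_Os03g57220), of photorespiration, rose from 828, 818 and 808 CPM to 1182, 1255 and 1397 CPM (log2 0.64), and GLO3 by 0.91. Rubisco activase RCA (LOC_Os11g47970), named after its values were seen, was at 1584, 1549 and 1496 CPM in WT and 3135, 3062 and 3157 CPM in ossro1c, 2.02-fold higher (log2 1.01, SE 0.06, edgeR adjusted p = 8.2e-09). The stearoyl desaturase SSI2 (LOC_Os01g69080), which makes oleate in plastids, rose by 1.09, and SAM2 (LOC_Os01g22010), an S-adenosylmethionine synthetase also named after its values were seen, by 1.01.

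Heat shock factors are transcription factors, among them activators of chaperone genes. They were lower in 12 of 21 cases and higher in 6 (median log2 change -0.68, and -0.36 with raw totals). By at least 2-fold 8 were lower and 2 higher, and the list members named below all fell. HSFB2B (LOC_Os08g43334) had 555, 574 and 575 counts in the WT libraries and 0 in every ossro1c library, and 0, 4 and 14 in osdreb2b. Against a floor of 3 counts over the ossro1c group it was at least 721-fold lower. HSFA3 (LOC_Os02g32590) fell from 738, 699 and 675 CPM to 235, 219 and 226 CPM (log2 -1.64, SE 0.07, edgeR adjusted p = 1.5e-10). HSFA2C (LOC_Os10g28340) went from 15.4, 12.9 and 14.1 CPM to 3.55, 3.87 and 3.005 CPM (log2 -2.02), and stood at 19.7 ± 1.27 CPM (SD, n = 3) in osdreb2b, above ossro1c by a log2 difference of 2.50 (edgeR adjusted p = 3.5e-09). The chaperone-like ATPase subunit CLPD1 (LOC_Os02g32520), of the chloroplast protease system and named after its values were seen, fell from 4836, 4806 and 4896 CPM to 1370.2, 1327 and 1102 CPM (log2 -1.94, SE 0.08, edgeR adjusted p = 2.6e-10).

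Other regulators gave calls in both directions, except for the flowering genes. Of the 5 WRKY genes, among 31 listed, whose names could be matched, WRKY76, WRKY71 and WRKY62 rose and WRKY24 and WRKY51 fell. WRKY71 (LOC_Os02g08440) read 735, 728 and 725 CPM in WT and 1544, 1437 and 1719 CPM in ossro1c (log2 1.103, SE 0.08, edgeR adjusted p = 2.4e-08), and WRKY24 (LOC_Os01g61080) read 612, 613 and 623 CPM and 297, 314 and 324 CPM (log2 -0.98). Both were lower in osdreb2b, at 317 ± 16.8 and 72.3 ± 1.31 CPM (SD, n = 3; log2 differences from ossro1c -2.303 and -2.11, edgeR adjusted p = 6.1e-11 and 2.8e-11). Of 4 NAC genes, NAC6 (LOC_Os01g66120), a stress factor, fell from 1692, 1669.9 and 1689.5 CPM to 998, 977 and 1086 CPM (log2 -0.72). NAC45 fell by 0.45 under TMM but did not pass with raw totals (edgeR adjusted p = 0.26), and NAC2 (LOC_Os04g38720) rose by 0.32, a call lost without ossro1c replicate 3 (0.20), WT replicate 1 (0.27) or WT replicate 3 (0.32). SPL factors, which time shoot phases, had 2 of 14 higher and 5 lower (median -0.26, 0.06 with raw totals). SPL12 (LOC_Os06g49010) rose from 4.98, 4.28 and 5.66 CPM to 15.9, 17.6 and 20.7 CPM (log2 1.86) and SPL13 by 1.497, while SPL9 and SPL6 fell by 0.47 and 0.42 but did not pass with raw totals (edgeR adjusted p = 0.27 and 0.53). SPL6 was at -0.26 without ossro1c replicate 3. The other 3 that fell were SPL10, SPL15 and SPL2, SPL15 by 0.32 and by 0.16 without that library. Without WT replicate 2 or 3 the list had 3 lower calls, and fitted on the WT and ossro1c libraries alone it had 2. Of 6 flowering genes MADS50 rose by 0.53 and HD1 by 1.396, and 0 fell (1 without ossro1c replicate 3).

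SnRK2 kinases, which act downstream of abscisic acid and osmotic stress, fell in 4 of 10 cases and rose in 3 (6 when fitted on the WT and ossro1c libraries alone). SAPK1 (LOC_Os03g27280) was at 139, 143 and 146 CPM in WT and 38.5, 36.1 and 39.3 CPM in ossro1c (log2 -1.91, SE 0.07, edgeR adjusted p = 1.2e-10). SAPK6 (LOC_Os02g34600) fell from 155, 155 and 151 CPM to 41.5, 39.2 and 42.4 CPM (log2 -1.90, SE 0.07, edgeR adjusted p = 9.4e-11), SAPK10 by 1.45 and SAPK9 by 0.27. SAPK5 (LOC_Os04g59450) rose from 46.5, 44.7 and 40.4 CPM to 96.8, 97.2 and 102 CPM (log2 1.17), with SAPK7 and SAPK3 at 0.94 and 0.75. Of 27 calcium-dependent and CBL-interacting kinases and their sensors, which decode calcium signals, 8 rose and 13 fell (median -0.20, turning to 0.12 with raw totals). CIPK15 (LOC_Os11g02240), which links low oxygen and sugar signals, read 26.6, 22.1 and 27.5 CPM in WT and 6.50, 6.84 and 6.63 CPM in ossro1c (log2 -1.93, SE 0.11, edgeR adjusted p = 2.7e-09). Its near-identical copy CIPK14 fell by 1.28, and reads of this pair may have been shared. In osdreb2b libraries CIPK15 was at 59.3 ± 4.53 CPM (SD, n = 3), above ossro1c by a log2 difference of 3.15 (edgeR adjusted p = 7.2e-11). CIPK2 (LOC_Os07g48090) fell from 167, 167 and 154 CPM to 49.5, 41.7 and 54.7 CPM (log2 -1.74). CPK7 (LOC_Os03g03660) rose from 124, 120.1 and 122 CPM to 338, 325 and 242 CPM (log2 1.31; 1.44 without replicate 3), and CPK17 by 1.75.

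Water and solute genes leaned lower for channels. Of 14 aquaporins 8 fell and 4 rose (median log2 change -0.83, and -0.52 with raw totals). PIP2;2 (LOC_Os02g41860), a plasma membrane water channel, went from 61.2, 67.1 and 63.9 CPM to 21.002, 20.4 and 26.0 CPM (log2 -1.51, SE 0.10, edgeR adjusted p = 2.3e-08). The vacuolar channel TIP1;2 (LOC_Os01g74450) fell from 7.77, 9.75 and 7.31 CPM to 4.19, 3.04 and 3.49 CPM (log2 -1.21), and was at 40.1 ± 3.75 CPM (SD, n = 3) in osdreb2b, above ossro1c by 3.49 on the log2 scale (edgeR adjusted p = 6.0e-10). PIP1;3 and PIP2;6 rose by 1.09 each, PIP2;1 rose by 0.45, and TIP2;1 was at 0 in WT and under 0.2 CPM in ossro1c. ADC1 (LOC_Os06g04070), arginine decarboxylase of polyamine synthesis, fell from 1118, 1088 and 1063 CPM to 414, 447 and 508 CPM (log2 -1.26, SE 0.09, edgeR adjusted p = 3.3e-08). The betaine aldehyde dehydrogenases BADH2 (LOC_Os08g32870) and BADH1 rose by 1.21 and 0.70, and P5CS2, of proline synthesis, fell by 0.63, though not with raw totals (edgeR adjusted p = 0.14).

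Markers of other tissues were counted in the same libraries. Of 6 checked root markers 2 passed the filter and 1 of these, the silicon transporter LSI1 (LOC_Os02g51110), rose from 2.82, 2.18 and 2.26 CPM to 15.8, 16.9 and 19.8 CPM (log2 2.85). The summed level of the 6 was 2.62 to 3.13 CPM in WT and 15.8 to 19.98 CPM in ossro1c, nearly all from LSI1. IRT1, the other root marker that passed the filter, went the other way without passing the threshold (log2 -1.65, edgeR adjusted p = 0.17). LSI2 was at 0 in all 6 libraries, and PIN2, PIN9 and NRT2.1 had at most 12 counts in any of them. The 7 checked meristem and cell division markers summed to 26.1 to 29.3 CPM in WT and 34.7 to 37.97 CPM in ossro1c. CDKB1;1, PCNA and CDKA;1 rose, by 1.101, 0.98 and 0.37. CDKB2;1 and OSH71 did not pass (log2 0.05 and -0.40), and the meristem genes OSH1 and OSH15 were at 0 throughout. The 7 checked seed storage markers summed to 4.15 to 7.22 CPM in WT and 8.67 to 10.1 CPM in ossro1c. GLUA2 was higher (log2 1.24), GLUA1 (log2 -0.90) and RAG2 (log2 1.43) did not pass, and GLUB2, GLUB4 and GLUB5 were at 0. The part of these marker levels in the auxin, expansin and nutrient results was not tested.

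The direct contrast of the mutant groups passed in 226 of the 341 tested list members, against 12147 of all 26112 genes tested (46.5%). The members lay more often at high levels than all genes tested and were chosen with earlier results known, so these shares are not like for like. Leaving out ossro1c replicate 3 ended the call of 8 members, added 21 and reversed 0, out of 246 that passed with it.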

How the data were processed

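RNA-seq counts of 9 libraries were used, 3 each of WT, ossro1c and osdreb2b, grouped by the genotype labels; 0 columns were left unused. The table the authors deposited holds whole-number counts for each locus with no normalisation. Tools listed in the submitters' processing notes are StringTie 2.1.4, HISAT2 2.2.1, fastp 0.23.4 and DESeq2, with no role for each. The genome build and the strand setting were not given in the sources used here. SMARTER mRNA libraries were made from TRIzol RNA, per the labels' protocols.

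A filter on low counts (filterByExpr, by group) kept 26112 loci, which hold at least 99.96% of counts in every library. After TMM scaling, all 9 libraries were fitted together in edgeR 4.0.16 (R 4.3.3) by robust quasi-likelihood, with 1 coefficient per group and Benjamini-Hochberg adjustment over all 26112 genes. Each SE is the size of the log2 change over the root of its F statistic. The scripts were tested on simulated data. Alternatives were DESeq2 1.42.0, other scalings (RLE, upper quartile, raw totals), other filters, the 6 libraries alone, a replicate block and leaving out each library.

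The members and lists were chosen with earlier results of these data known. Names were paired with loci from general knowledge of rice genes, and a name was used only if a reference gene table (assembly ASM3414082v1) places it on the same chromosome and at most 1 Mb from where the locus identifier, by interpolation, falls. Of 570 listed loci, 404 names were found, 389 passed (median distance 0.015 Mb), 2 were too far, 13 lay on another chromosome and 166 were not in the table, OsSRO1c among them, which was kept as a study gene. Of the 389 that passed, 388 are in the count table. Named genes are the 3 study genes, up to 4 members per list past the threshold by largest change (at least 5 CPM in the higher group, no overlap), up to 2 per list that did not pass by highest mean, the 8 highest and 8 lowest changes, and the 6 largest gains and 6 largest losses in CPM.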

Additional observations from a re-analysis of the deposited data

How the results depend on the processing

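Over 14 alternatives the number of genes called ran from 14659 to 16452 of those tested, against 15892, and the values for OsSRO1c, from -2.37 to -1.98, and COLD1, from -0.81 to -0.45, kept their direction and stayed past the threshold. DESeq2 called 16401, the 6 libraries alone 15460, no filter 15713 of 35011 and a filter at 1 CPM 14777 of 20704. Leaving out 1 library gave 14659 to 16452. Replicate numbers did not pair the libraries, since the deviations of same-numbered WT and ossro1c libraries correlated at -0.0008, 0.003 and 0.004, and the fit with the replicate block called 15666. Raw library totals gave 16235 calls, 63.2% of them higher against 48.4%, and upper-quartile scaling 15970 with 55.8% higher. Values of named genes under the alternatives kept their call in 2212 cases. In 87 they newly passed, in 21 they no longer passed and in 7 they turned, all 7 under raw totals. These were GID2 (LOC_Os02g36974, log2 0.24), IAA13 (LOC_Os03g53150, 0.27), BAK1 (LOC_Os08g07760, 0.24), CHI (LOC_Os03g60509, 0.30), CPK4 (LOC_Os02g03410, 0.17), HAK1 (LOC_Os04g32920, 0.14) and SAMDC1 (LOC_Os04g42090, 0.17). Some named genes that passed in neither fit also changed sign under raw totals and are not among the 7, such as ARF7 (log2 -0.16 to 0.16) and CKX11 (-0.20 to 0.12). Raw totals moved the median log2 change of all genes from -0.001 to 0.32. Counts of list members called stayed within 1.5 times in 962 cases and moved further in 74. Of genes under 1 CPM, where counts are few, 28.0% passed, and the part of depth in this share was not tested.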
